A study of Mus musculus with 11 samples.

Results

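The genes described here encode the cholesterol synthesis pathway and its main switch: Insig1, Srebf2, Hmgcs1, Idi1, Fdps, Sqle, Lss, Cyp51, Ebp and Sc5d. They were chosen by name, with their fasting changes in these arrays already known, so the values of these 10 genes are a description and no test is offered on them. They are 10 of 18048 genes named by the array. Of its 34999 probes, 13 carried exactly 1 of these gene symbols, and each of the 10 genes had at least 1 probe. Srebf2 had 3 probes and Cyp51 had 2. The samples were hypothalamus and cerebellum of wild-type female SV/129 mice aged 10 weeks. One group of 6 mice was fasted for 16 hours from the start of the dark phase, and a further 6 mice kept free access to chow, with water given to both. RNA of the mice of a feeding state was combined by region into 4 pools, and each pool was hybridised repeatedly to single-colour CodeLink arrays. There were 3 arrays of each pool except the fasted cerebellum, which had 2 after 1 was discarded by the submitters.

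The arrays of a pool repeat 1 RNA preparation, so their spread is that of labelling and hybridisation, and every test below compares pools rather than mice. In pooled tissue, fewer cells of a type and less RNA per cell cannot be told apart. The deposited values are ratios: within a region, the middle of the 3 fed values of a probe is always 1. Levels can therefore not be compared between genes or between regions, and neither tissue could be checked against the level of its defining markers. To make arrays comparable, all ratios of an array were divided by their median, and this scaled ratio is the value given per array. A change is the difference of mean log2 scaled ratios, fasted minus fed, ± SE of a limma fit over all 11 arrays. A probe counts as called at an adjusted p under 0.05 after Benjamini-Hochberg adjustment over all probes. Where a gene had several probes, the one with the smallest residual SD between arrays stands for it. That SD was between 0.04 and 0.11 log2 for the 10 genes, with a median of 0.07, against a median of 0.09 over all probes.

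Cholesterol is built from acetyl-CoA by way of mevalonate and the isoprenoids, which are joined to squalene, closed to lanosterol and then trimmed and reduced to the finished sterol. The brain makes nearly all of its own cholesterol, because lipoproteins of the blood do not cross the blood-brain barrier, and much of it goes into myelin. The transcription factor SREBP2, the product of Srebf2, turns on the genes of the pathway when sterols in the endoplasmic reticulum run low. The Insig proteins hold SREBP2 and its escort Scap in the endoplasmic reticulum when sterols are plentiful, and Insig1 is itself a target of SREBP2. SREBPs bind promoters together with NF-Y, a factor that recognises the CCAAT box.

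The promoters of the genes are shown because SREBP2 acts through them, though the 10 genes were chosen by name and not by promoter. For 8 of the 10 genes the RefSeq table (build GRCm38.p6) held a promoter, read here over the 250 bases before the transcription start. The core of the sterol regulatory element was searched as TCACNCCAC and the CCAAT box as CCAAT, both on either strand, and no match of one overlapped a match of the other. CCAAT was present in 8 of 8 of these promoters, against 33.8% of all 32851 promoters of the table over the same window. Of 11 other synthesis enzymes with a promoter in the table, 10 held it in at least 1 promoter, against 37.5% of all genes of the table. TCACNCCAC was present in 1 of the 8, that of Hmgcs1, and in 1.05% of all promoters. A match is a string of letters and was not tested as a binding site. Of the 8 sequences, 6 follow, those of the switch genes and of 4 enzymes that differed in their fasting change, chosen after their values were seen, 5′ to 3′ on the strand of the gene, with the matches in capitals (ATTGG is CCAAT on the opposite strand). Insig1 lies at chr5:28071162-28071411 on the + strand, Srebf2 at chr15:82147019-82147268 (+), Hmgcs1 at chr13:119690101-119690350 (+), Idi1 at chr13:8885356-8885605 (+), Cyp51 at chr5:4104698-4104947 (-) and Ebp at chrX:8193513-8193762 (-).
Insig1: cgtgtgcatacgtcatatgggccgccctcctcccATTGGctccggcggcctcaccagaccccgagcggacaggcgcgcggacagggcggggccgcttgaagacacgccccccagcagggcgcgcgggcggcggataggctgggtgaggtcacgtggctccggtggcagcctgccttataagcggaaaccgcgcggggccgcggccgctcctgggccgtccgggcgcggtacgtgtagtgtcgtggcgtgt
Srebf2: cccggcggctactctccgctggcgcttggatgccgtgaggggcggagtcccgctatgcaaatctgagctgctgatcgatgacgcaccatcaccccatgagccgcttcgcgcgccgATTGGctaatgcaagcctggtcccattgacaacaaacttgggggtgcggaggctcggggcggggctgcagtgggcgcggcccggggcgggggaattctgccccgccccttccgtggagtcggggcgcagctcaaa
Hmgcs1: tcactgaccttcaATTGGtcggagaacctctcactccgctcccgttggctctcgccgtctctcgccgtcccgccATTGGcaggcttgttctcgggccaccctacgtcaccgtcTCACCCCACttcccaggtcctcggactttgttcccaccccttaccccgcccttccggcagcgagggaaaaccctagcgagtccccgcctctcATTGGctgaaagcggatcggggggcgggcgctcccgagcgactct
Idi1: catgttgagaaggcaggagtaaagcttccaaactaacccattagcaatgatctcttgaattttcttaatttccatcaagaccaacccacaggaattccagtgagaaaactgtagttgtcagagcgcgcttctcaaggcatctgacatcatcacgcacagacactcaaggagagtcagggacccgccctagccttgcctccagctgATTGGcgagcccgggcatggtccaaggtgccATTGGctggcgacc
Cyp51: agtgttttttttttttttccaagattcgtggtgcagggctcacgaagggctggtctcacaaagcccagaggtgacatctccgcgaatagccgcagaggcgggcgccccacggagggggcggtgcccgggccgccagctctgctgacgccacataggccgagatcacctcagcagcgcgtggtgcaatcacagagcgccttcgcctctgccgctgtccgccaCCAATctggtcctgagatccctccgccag
Ebp: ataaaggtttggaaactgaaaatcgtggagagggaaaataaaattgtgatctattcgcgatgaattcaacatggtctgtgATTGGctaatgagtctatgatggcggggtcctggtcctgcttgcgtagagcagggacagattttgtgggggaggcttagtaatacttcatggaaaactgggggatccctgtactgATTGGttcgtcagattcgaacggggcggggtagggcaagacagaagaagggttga
Hmgcs1 held 3 CCAAT boxes beside its sterol element, which begins at base -137 and ends at base -129 relative to the start. Idi1 and Ebp held 2 boxes each, and Insig1, Srebf2 and Cyp51 held 1 each.

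The switch genes Insig1 and Srebf2 both read lower on the fasted cerebellum arrays, Srebf2 only by the probe that stands for it. In hypothalamus Insig1 was lower, while the fed and fasted groups of that Srebf2 probe overlapped. No test compared these genes with each other. Insig1, the sterol sensor that retains SREBP2, read 1.00, 1.09 and 0.876 on the fed hypothalamus arrays and 0.686, 0.705 and 0.791 on the fasted ones. The groups did not overlap, and the change was -0.44 ± 0.09 log2, or 26.3% lower. In cerebellum Insig1 read 1.09, 1.00 and 0.992 in the fed pool and 0.858 and 0.838 in the fasted pool. Both fasted arrays lay under all fed arrays, with a change of -0.28 ± 0.10 that was not called.

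Srebf2, which encodes SREBP2, gave different answers by probe. The probe that stands for the gene read 1.08, 1.00 and 0.906 in the fed hypothalamus and 1.02, 1.05 and 0.973 in the fasted one, with overlapping groups and a change of 0.03 ± 0.07. In cerebellum it read 0.970, 1.12 and 1.00 in the fed pool against 0.725 and 0.731 in the fasted pool, a change of -0.50 ± 0.08. A second probe with nearly the same residual SD changed by -0.17 ± 0.08 in hypothalamus and by 0.12 ± 0.09 in cerebellum. The last probe, with a residual SD of 0.86, spread from 0.378 to 2.09 over the arrays and gave -0.83 ± 0.63 and 0.59 ± 0.70. Of the 3 probes only the first was called, and only in cerebellum, so the direction of Srebf2 rests on the probe chosen: the mean over the 3 probes, a value chosen after seeing the data, was 0.073 in cerebellum and -0.32 in hypothalamus.

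The enzymes before squalene differed among themselves. Hmgcs1, the synthase that makes HMG-CoA for the mevalonate pathway, had small changes. It read 1.10, 1.00 and 0.989 in the fed hypothalamus against 0.964, 0.995 and 0.996 in the fasted one, and 0.988, 1.01 and 1.00 in the fed cerebellum against 0.963 and 0.871 in the fasted one. Its changes were -0.06 ± 0.06 and -0.13 ± 0.06 log2, neither of them called. The groups overlapped in hypothalamus, while both fasted cerebellum arrays lay under the fed ones.

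Idi1, the isomerase that makes the 2 isoprenoid building blocks interchangeable, was lower in both fasted pools. It read 1.01, 0.935 and 1.00 in the fed hypothalamus and 0.877, 0.862 and 0.826 in the fasted one, a change of -0.20 ± 0.05. In cerebellum the fed arrays read 0.982, 1.00 and 1.01 and the fasted arrays 0.606 and 0.663, a change of -0.65 ± 0.06 or 36.4% lower. The groups did not overlap in either region, and the cerebellum change was the more negative by 0.45 ± 0.08.

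Fdps, which joins these units to farnesyl diphosphate, was lower in the fasted hypothalamus and overlapped in cerebellum. It read 1.03, 1.00 and 0.897 on the fed arrays and 0.801, 0.842 and 0.776 on the fasted arrays of hypothalamus, a change of -0.27 ± 0.07. In cerebellum the fed values 1.00, 1.08 and 0.945 enclosed the fasted values 0.977 and 1.01, and the change was -0.02 ± 0.08. The difference between the regional changes, -0.25 ± 0.10, was not called.

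Squalene oxidation and ring closure, steps that follow each other, differed in cerebellum. Sqle, squalene epoxidase, a rate-limiting step of the sterol branch, read 1.00, 1.08 and 0.938 in the fed cerebellum and 0.440 and 0.482 in the fasted one. This change of -1.12 ± 0.09 log2, 54.1% lower, was the largest of the 10 genes, and 0.731% of all probes had a more negative change in cerebellum. In hypothalamus Sqle read 1.07, 1.00 and 0.886 in the fed pool and 0.955, 0.935 and 0.887 in the fasted pool, and the groups overlapped (-0.09 ± 0.08). The difference between the regional changes of Sqle was 1.04 ± 0.12. Lss, the cyclase that closes the ring to lanosterol, read 1.01, 0.977 and 1.00 on fed and 0.949, 0.950 and 1.05 on fasted hypothalamus arrays. In cerebellum it read 0.938, 1.00 and 1.04 on fed and 1.03 and 1.06 on fasted arrays. The groups overlapped in both regions. Its changes were -0.02 ± 0.05 and 0.07 ± 0.06, and neither was called.

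**Figure D1:**
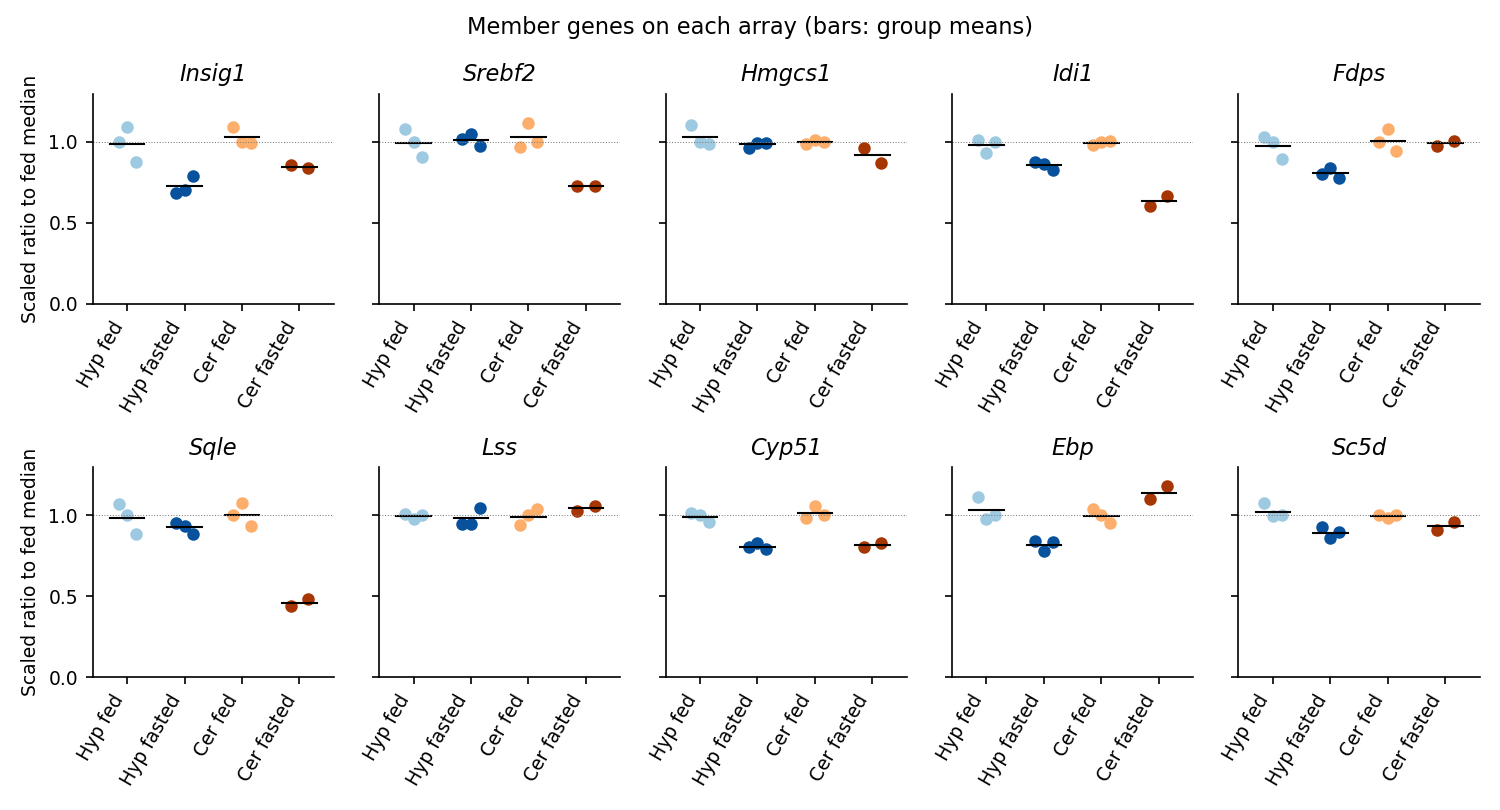
Scaled ratio to the fed median (y axis, linear from 0) of the 10 genes on each array, 1 panel a gene, with points for arrays and bars for group means, in fed and fasted hypothalamus (Hyp) and cerebellum (Cer). Sqle on the fasted cerebellum arrays, at 0.440 and 0.482, lies lowest of all points, and Cyp51 is at a similar reduced ratio in both fasted pools.

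Among the enzymes after lanosterol, Cyp51 moved alike in both regions and Ebp did not. Cyp51, the lanosterol demethylase, read 1.02, 1.00 and 0.963 in the fed hypothalamus against 0.804, 0.829 and 0.790 in the fasted one. In cerebellum it read 0.985, 1.06 and 1.00 against 0.807 and 0.831. The changes of -0.30 ± 0.04 and -0.31 ± 0.05 differed by 0.01 ± 0.07. The second Cyp51 probe gave -0.29 ± 0.08 and -0.45 ± 0.09, so both probes were lower in both fasted pools.

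Ebp, the sterol isomerase also known as emopamil-binding protein, read 1.11, 0.980 and 1.00 in the fed hypothalamus and 0.842, 0.781 and 0.838 in the fasted one, a change of -0.33 ± 0.06. In cerebellum the order was turned, with 1.04, 1.00 and 0.956 on the fed arrays and 1.10 and 1.18 on the fasted arrays (0.19 ± 0.07, not called). Ebp was the only one of the 10 genes whose fasted arrays lay outside the fed range on opposite sides in the 2 regions. Sc5d, the desaturase of a late step, read 1.08, 0.995 and 1.00 against 0.926, 0.859 and 0.895 in hypothalamus, a change of -0.20 ± 0.05. Its cerebellum values were 1.01, 0.987 and 1.00 against 0.909 and 0.958, a change of -0.10 ± 0.05 that was not called.

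As a group, 9 of the 10 genes had a negative change in hypothalamus and 8 of 10 in cerebellum. In hypothalamus 6 were called lower (Insig1, Idi1, Fdps, Cyp51, Ebp and Sc5d) and 0 higher, where 7.89% of all probes were called lower and 6.34% higher (14.2% in all). In cerebellum 4 were called lower (Srebf2, Idi1, Sqle and Cyp51) and 0 higher, against 11.2% and 9.66% of all probes (20.9% in all). Fasted and fed arrays did not overlap for 6 genes in hypothalamus, all lower (19.5% of all probes, with 17.8% higher), and for 8 in cerebellum, 7 lower (24.9%) and Ebp higher (25.1%). Since the genes were picked with these contrasts known, the counts carry no weight of their own. The median change was -0.20 in each region, beside 0.00 and 0.01 over all probes, and the range ran from -0.44 to 0.03 in hypothalamus and from -1.12 to 0.19 in cerebellum. Idi1 and Cyp51 were called in both regions.

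The hypothalamus counts, for the 10 genes as for all probes, depended on single arrays. Leaving out the array fed replicate 1 left 3 of the 10 genes called lower, where 3.65% of all probes were. Leaving out fasted replicate 2 left 2 genes (3.90% of all probes), and leaving out fasted replicate 3 left 3 (3.34%). With the hypothalamus arrays fitted alone, 2 genes were called lower (3.94% of all probes). Quantile normalization over all arrays called 0 of the 10 genes in hypothalamus (0.0371% of all probes lower) and 1, Sqle, in cerebellum (1.10%). Within regions the genes counted were 0 (0.0429%) and 1 (0.997%). The deposited ratios hold fed values near 1. The interquartile range of all log2 ratios was 0.016 to 0.099 on fed arrays and 0.24 to 0.31 on fasted arrays. Quantile normalization makes these spreads equal, so its counts are no separate check of the fasting change.

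**Figure D2:**
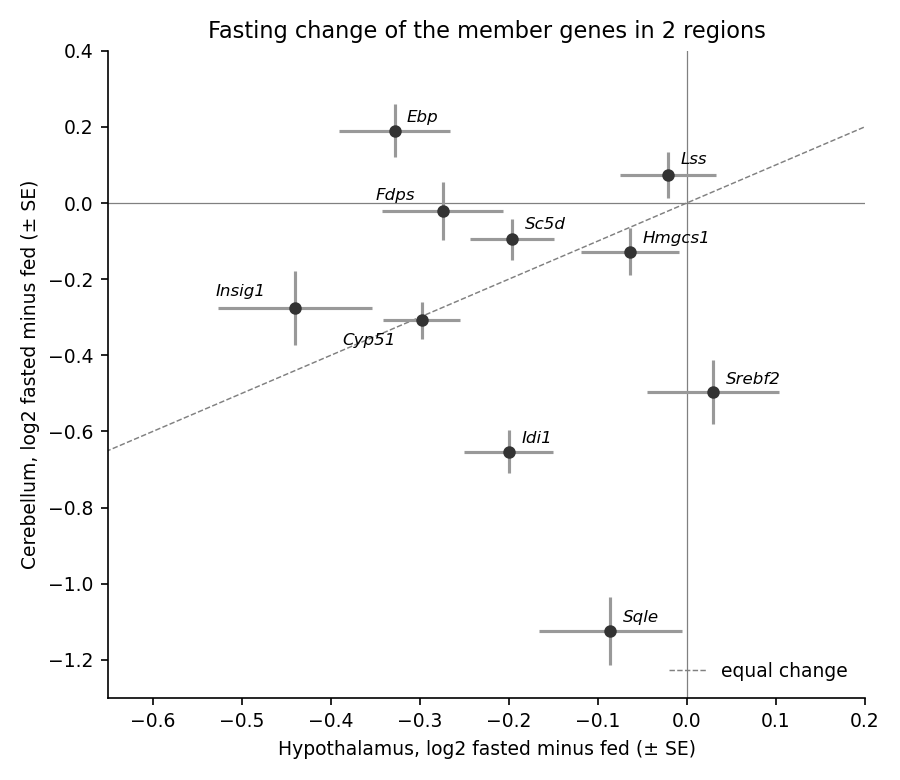
Log2 change, fasted minus fed, in hypothalamus (x axis) and cerebellum (y axis) for the 10 genes, with SE bars from the limma fit; the dashed line marks equal changes. Cyp51 lies on the line, Sqle, Idi1 and Srebf2 (by the probe that stands for it) lie below it and Ebp above it. The other Srebf2 probes, not shown, differed in the opposite direction.

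The regional difference was described in the same way. The change in hypothalamus minus that in cerebellum was 1.04 ± 0.12 for Sqle and 0.45 ± 0.08 for Idi1, each more negative in cerebellum. Srebf2, by the probe that stands for it, differed in the same direction, by 0.53 ± 0.11. For Ebp the difference was -0.52 ± 0.09, more negative in hypothalamus. These 4 passed the threshold, which for genes chosen with these changes known is a description, against 8.66% of all probes for a positive and 9.01% for a negative difference (17.7% in all). For the other 6 genes the difference lay between -0.25 (Fdps) and 0.06 (Hmgcs1) and was not called. The other Srebf2 probes gave differences of the opposite sign, -0.29 ± 0.12 and -1.43 ± 0.94, neither of them called. With the change averaged over both regions, 22.7% of all probes were called when arrays were the units and 0 probes when the 4 pools were (1306 at an unadjusted p under 0.05, limma). On the pools, the mean change was -0.60 ± 0.30 for Sqle, -0.43 ± 0.16 for Idi1 and -0.30 ± 0.10 for Cyp51. This fit had 1 residual degree of freedom. Its SE is moderated over all probes, so it does not measure the spread of a gene between pools.

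Of the other enzymes of the pathway, 16 were listed and 12 had a probe with 1 gene symbol. In hypothalamus 0 of these 12 passed the test in either direction (adjusted p from 0.0714 to 0.904, limma), against 14.2% of all probes. Their median change was -0.11. Mvk, mevalonate kinase, stood at -0.16 ± 0.05 (adjusted p = 0.0786), Pmvk, the next kinase, at -0.31 ± 0.10 (0.0714) and Dhcr7, a reductase of the last steps, at -0.09 ± 0.07 (0.393). The test does depend on the scaling here. Division by the 75th percentile in place of the median shifts the median of all probes by -0.11. With it 7 of the 12 were called lower, where 24.4% of all probes were. The changes of Mvk in the 2 regions differed by -0.32 ± 0.08 (adjusted p = 0.0265, limma).

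In cerebellum 1 of the 12 fell and 0 rose (11.2% and 9.66% of all probes), with a median change of 0.08. The gene that fell was Lbr, whose product is both the lamin B receptor of the nuclear envelope and a sterol reductase. Lbr read 0.951, 1.00 and 1.03 on fed arrays and 0.482 and 0.491 on fasted arrays, a change of -1.03 ± 0.06 (adjusted p = 1.57e-05, limma). Its second probe stood at 0.06, so the fall was seen by 1 of the 2 Lbr probes. Fdft1, the squalene synthase just before Sqle, stood at 0.16 ± 0.14, and Msmo1 and Nsdhl, which act after Cyp51, at -0.12 ± 0.07 and 0.15 ± 0.07, none of them called.

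**Figure D3:**
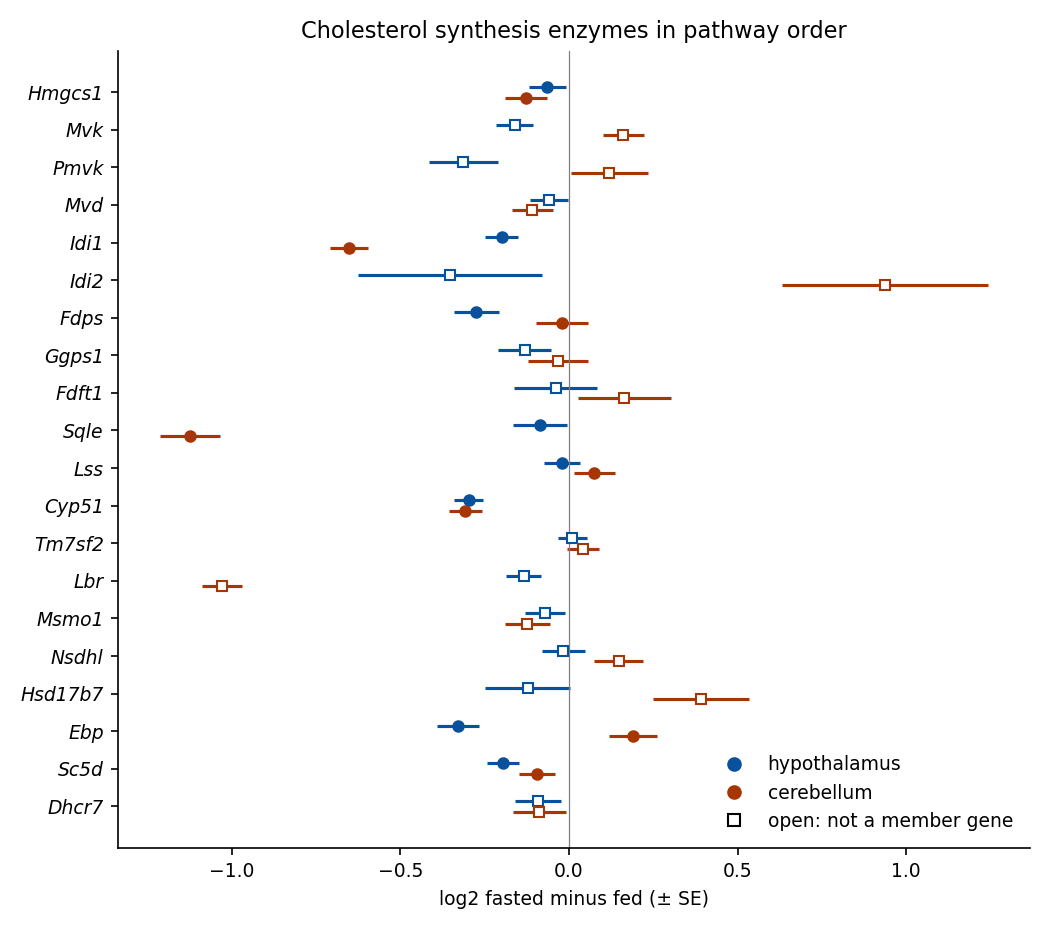
Log2 change, fasted minus fed, with SE (x axis) of 20 cholesterol synthesis enzymes in pathway order (y axis), in hypothalamus (blue) and cerebellum (orange-brown); filled circles are genes described in the text above by array, open squares are other enzymes. Sqle (-1.12) and Lbr (-1.03) lie lowest in cerebellum, and Idi2 (0.94 ± 0.31, not called) lies highest. The second Lbr probe, not shown, stood at 0.06.

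Control of SREBP was followed in a list of 16 genes, of which 12 were measured. In hypothalamus 2 rose and 1 fell (6.34% and 7.89% of all probes), and in cerebellum 2 rose and 3 fell (9.66% and 11.2%). The escort Scap was not called in either region (0.10 ± 0.08 and 0.05 ± 0.09). Insig2, the paralog of Insig1, fell in cerebellum by 0.31 on the log2 scale (-0.31 ± 0.05, adjusted p = 0.00295, limma), with a second probe at -0.33, and stood at -0.10 ± 0.05 in hypothalamus.

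Srebf1, which encodes the SREBP of fatty acid synthesis, read 1.02, 1.00 and 0.964 in the fed cerebellum and 0.622 and 0.662 in the fasted one, a fall of -0.63 ± 0.05 (adjusted p = 6.72e-05, limma). In hypothalamus the same probe rose by 0.19 ± 0.05 (adjusted p = 0.0316), a call lost when any 1 of the 6 hypothalamus arrays was left out. The second Srebf1 probe was at -0.65 in cerebellum and -0.42 in hypothalamus, neither called. Fbxw7, part of the ligase that marks nuclear SREBP for destruction, fell in hypothalamus (-0.21 ± 0.05, adjusted p = 0.0281) and rose in cerebellum (0.46 ± 0.06, adjusted p = 0.000527). Erlin2, an endoplasmic reticulum protein that takes part in the disposal of proteins there, rose in hypothalamus (0.26 ± 0.05, adjusted p = 0.0174) and fell in cerebellum (-0.23 ± 0.06, adjusted p = 0.0268). Ufd1, which helps to extract proteins from the endoplasmic reticulum for degradation, rose in cerebellum (0.37 ± 0.09, adjusted p = 0.0186). The cerebellum call of Fbxw7 held whichever array was left out, and the other calls of Fbxw7, Erlin2 and Ufd1 were lost without single arrays (5 for Fbxw7 and 3 for Erlin2 in hypothalamus, 4 for Erlin2 and 2 for Ufd1 in cerebellum). Counting any probe of a gene, 3 rose in hypothalamus and 5 fell in cerebellum, through second probes of Mbtps1, a protease that releases SREBP (0.40 and -0.51), and of Erlin1, a partner of Erlin2 (-1.02 in cerebellum).

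Genes of cholesterol export, storage and turnover were measured for 17 of 22 listed. In hypothalamus 2 fell and 0 rose (7.89% and 6.34% of all probes), and in cerebellum 6 fell and 0 rose (11.2% and 9.66%). Cyp46a1, the neuronal hydroxylase through which the brain disposes of cholesterol, fell in both regions. It read 1.06, 0.908 and 1.00 in the fed hypothalamus against 0.782, 0.697 and 0.789 in the fasted one (-0.39 ± 0.07, adjusted p = 0.0107, limma). In cerebellum it read 1.00, 1.00 and 0.978 against 0.782 and 0.838 (-0.29 ± 0.08, adjusted p = 0.027), a call lost when any 1 of the 5 cerebellum arrays was left out. Lcat, which esterifies cholesterol on lipoproteins, fell in hypothalamus (-0.26 ± 0.06, adjusted p = 0.0197), a call lost without 1 of 3 arrays, and its regional difference of -0.21 ± 0.08 was not called.

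Abca1, the main cholesterol exporter, read 1.10, 1.00 and 0.985 in the fed cerebellum and 0.598 and 0.584 in the fasted one, a fall of -0.80 ± 0.06 (adjusted p = 5.8e-05, limma). In hypothalamus it stood at 0.18 ± 0.06 (adjusted p = 0.0615). The related transporter gene Abcg4 (-0.29 ± 0.06), the liver X receptor gene Nr1h3 (-0.27 ± 0.08), the oxysterol hydroxylase gene Cyp7b1 (-0.23 ± 0.06) and the lipoprotein receptor gene Vldlr (-0.18 ± 0.05) also fell in cerebellum, with adjusted p between 0.00796 and 0.0404 (limma). The calls of Nr1h3 and Vldlr were each lost without 1 of 8 arrays, that of Cyp7b1 without 1 of 4 and that of Abcg4 without 1. A second probe of Vldlr rose (0.33, adjusted p = 0.00263, limma), and that of Abcg4 stood at 0.05. Apoe, the main lipoprotein of astrocytes, was not called in either region (-0.09 ± 0.10 and 0.12 ± 0.11).

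Fatty acid synthesis genes share SREBP control with the pathway, and 15 were measured. In hypothalamus 2 fell, Elovl6 (-0.31 ± 0.08) and Fads2 (-0.18 ± 0.05), and in cerebellum 7 fell and 1 rose. Of all probes, 7.89% fell in hypothalamus, and 11.2% fell and 9.66% rose in cerebellum. The second Fads2 probe was called in neither region (0.21 and -0.17). Both hypothalamus calls were lost without single arrays, 5 of 11 for Elovl6 and 9 of 11 for Fads2. Fasn read 1.00, 1.00 and 0.888 in the fed cerebellum against 0.345 and 0.389 in the fasted one, a fall of -1.39 ± 0.08 (adjusted p = 1.42e-05, limma), though its second probe stood at -0.11. Fads2 (-0.67), Acly (-0.56), Scd2 (-0.52), Me1 (-0.44) and Acss2 (-0.41) fell there as well.

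The counts of these 4 lists moved with the scaling and the arrays fitted. With either quantile setting, 0 genes of the lists were called in hypothalamus by limma, where 32 and 25 of 34999 probes were called. In cerebellum 1 gene each of the other synthesis enzymes, of cholesterol traffic and of fatty acid synthesis fell, and 0 of SREBP control were called. Of all probes, 1.10% and 0.997% were lower there with these settings. With the 75th percentile, where 24.4% of all probes were lower in hypothalamus and 26.7% in cerebellum, 4 SREBP control genes, 6 traffic genes and 9 fatty acid genes fell in hypothalamus. In cerebellum 4 of the other synthesis enzymes, 6 SREBP control genes, 8 traffic genes and 10 fatty acid genes then fell, and 1 SREBP control gene rose (1734 of 34999 probes did). With each region fitted alone, 0 genes of the 4 lists fell in hypothalamus (3.94% of all probes). There 1 SREBP control gene rose (830 of 34999 probes). In cerebellum that fit left 1 of the other synthesis enzymes, 2 SREBP control genes, 3 traffic genes and 6 fatty acid genes lower (7.57% of all probes). Of the other synthesis enzymes and of SREBP control 1 gene each rose there (2262 of 34999 probes).

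Markers of cells that make or hold much cholesterol moved in the same comparisons, and their part in the changes above was not tested. Of all probes, 7.89% fell and 6.34% rose in hypothalamus, and 11.2% fell and 9.66% rose in cerebellum. Of 15 measured oligodendrocyte genes, 6 fell and 0 rose in hypothalamus, with a median of -0.15, and 7 fell and 1 rose in cerebellum, with a median of -0.09. The mean log2 ratio of the list lay between -0.02 and 0.06 on fed and between -0.24 and -0.17 on fasted hypothalamus arrays, and between -0.05 and 0.04 against -0.17 and -0.16 in cerebellum. Ugt8a, which makes the glycolipid of myelin, fell in both (-0.63 ± 0.07 and -0.82 ± 0.08), as did Olig1, Olig2, Ermn and Fa2h. Sox10 fell in hypothalamus, Mobp and Trf fell in cerebellum and Aspa rose there, and Mbp, Mog, Mag, Cnp, Cldn11 and Mal were called in neither region. Of 14 astrocyte genes 4 fell and 0 rose in hypothalamus, and 6 fell and 2 rose in cerebellum, where the list mean was between -0.22 and -0.19 on fasted arrays and between -0.01 and 0.01 on fed arrays. Counting any probe of a gene, 4 astrocyte genes rose in cerebellum, since other probes of Aqp4 (0.41) and Slc1a2 (1.44) rose there.

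Tissue beside the dissected regions was followed too, where 7.89% of all probes fell and 6.34% rose in hypothalamus, and 11.2% and 9.66% in cerebellum. Thalamus and habenula markers fell for 9 of 12 in hypothalamus, with list means of -0.56 to -0.53 on fasted and -0.06 to 0.05 on fed arrays, and granule and Purkinje cell markers were higher for 5 and lower for 1 of 12 there. In cerebellum, 7 of 12 meninges and fibroblast genes fell (list means of -0.45 to -0.42 on fasted and -0.09 to 0.03 on fed arrays) and 5 of 9 choroid plexus genes fell. In hypothalamus 6 of the 12 meninges and fibroblast genes rose and 0 fell (list means of 0.15 to 0.21 on fasted and -0.06 to 0.04 on fed arrays), and choroid plexus genes fell for 2 and rose for 1. Thalamus and habenula markers fell for 4 and rose for 1 of 12 in cerebellum. Microglia genes fell for 6 of 11 in hypothalamus and 2 of 11 in cerebellum. Pan-neuronal genes fell for 3 and rose for 0 of 14 in hypothalamus, and fell for 1 and rose for 4 in cerebellum. Whether these shifts bear on the synthesis genes was not tested.

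**Figure D4:**
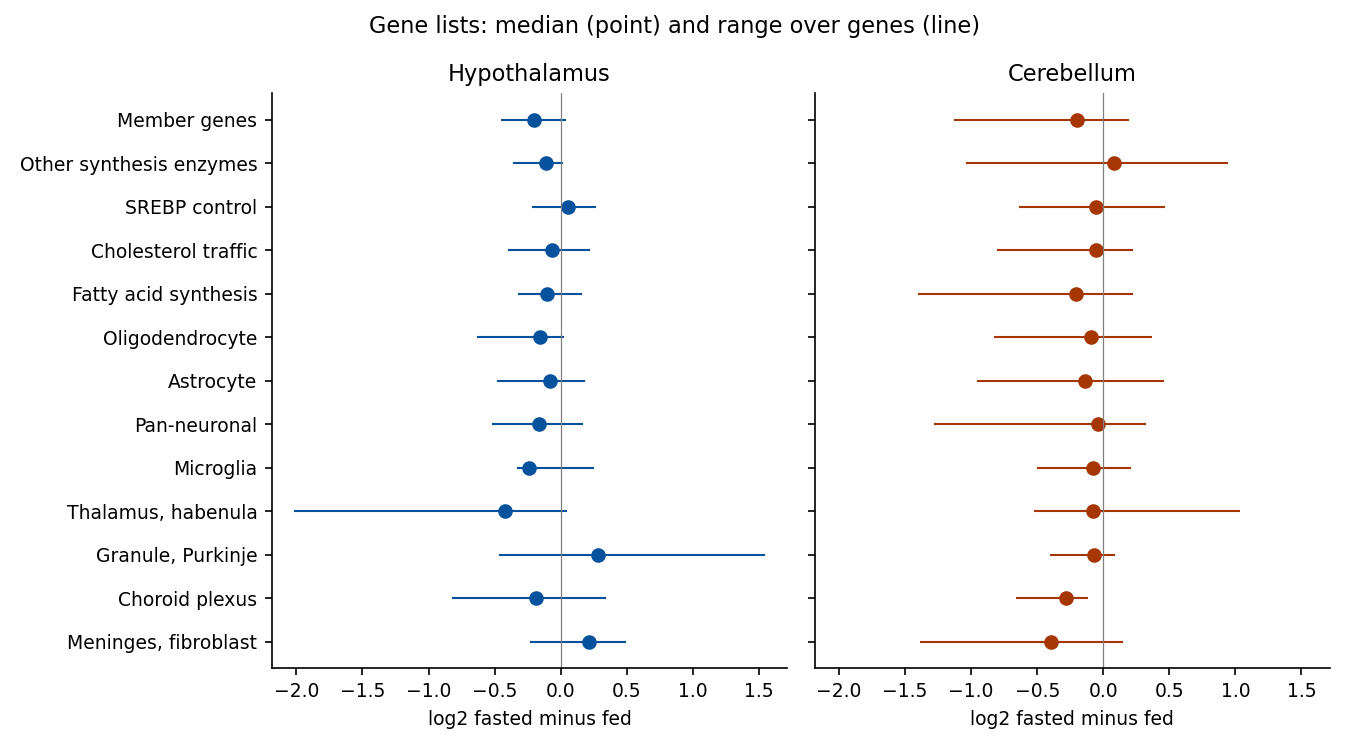
Median (point) and range over genes (line) of the log2 change, fasted minus fed (x axis), for the 10 described genes (first line, marked as member genes) and each other gene list (y axis), in hypothalamus (left) and cerebellum (right). The median of the 10 genes is -0.20 in both, that of thalamus and habenula markers -0.42 in hypothalamus, and that of meninges and fibroblast genes -0.40 in cerebellum.

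Among the other named probes, the 5 whose values followed the mean of the 10 genes most closely were looked up over the 11 arrays. They were Zfp445 (Pearson's r = 0.99), Lpcat2 (0.99), Brat1 (0.99), Mmp14 (0.99) and Armcx3 (0.98), out of 21389 probes. The 11 arrays share 4 pools and are not independent points. Zfp445 changed by -0.30 in hypothalamus and -0.51 in cerebellum, and Armcx3 by -0.16 and -0.23. Of the 10 genes themselves, Cyp51 followed the mean of the other 9 most closely (r = 0.92) and Idi1 next (0.82), while Ebp (0.01) and Lss (-0.29) did not follow it.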

How the data were processed

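The deposited values are linear ratios per probe on 11 single-colour arrays, and per the labels each array holds biotin-labelled cRNA of pooled RNA. That the authors set each probe relative to the fed arrays of its region was read from the values: the fed median was 1 (tolerance 1e-06) for 34999 probes in either region. How the arrays were scanned, background-corrected and scaled was not given in the sources used here. Probes near background could therefore not be recognised. After division by the array median, ratios under 0.1 were set to 0.1 (none among the 13 probes), and converted to log2.

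Means of the 4 groups were estimated in R 4.3.3 by limma 3.58.1, with 7 residual and 1.82 prior degrees of freedom, a variance prior without trend and two-sided moderated tests. Genes were named from the platform annotation, where 21590 probes had 1 gene symbol, 681 several and 12728 none here. List genes were matched by symbol or Entrez identifier through the RefSeq table. The 10 genes, the lists and the tests were chosen with earlier results of these data known, some list genes among them. Named in the text are all probes of the 10 genes, up to 6 called genes per list and region by size of change, Scap, Insig2 and Srebf1, uncalled genes chosen after their values were seen to show neighbouring steps (Mvk, Pmvk, Dhcr7, Fdft1, Msmo1, Nsdhl, Apoe), marker genes, and the 5 closest profiles. Idi2 is named only in a caption, for its extreme value there. Ratios of 34999 probes were also simulated with the real residual SDs, with only 50 probes changed for each fold. The recovery of 1.2-fold, 1.5-fold and 2-fold changes was 10%, 78% and 90% in hypothalamus and 14%, 64% and 96% in cerebellum, and 6.08% and 6.99% of the calls were false. In the data 4980 and 7302 probes were called. The adjusted threshold depends on how many probes change, so these rates do not carry over to the data. Alternatives covered scaling, floor, filter, variance prior, samples in the fit, replicate block, probe choice and leaving out each array. The number of arrays limits the precision.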

Additional observations from a re-analysis of the deposited data

Results flagged for a closer look

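By the interaction test of limma, the fasting change differed between regions for 13 genes named above around the pathway or among cell markers. The difference is given as the change in hypothalamus minus that in cerebellum. Further genes of the lists, not named above, also passed this test, as did 17.7% of all probes. Fasn differed by 1.34 ± 0.10 log2 (adjusted p = 0.000104), Abca1 by 0.98 ± 0.09 (0.000165), Lbr by 0.89 ± 0.08 (0.000184), Srebf1 by 0.82 ± 0.07 (0.000155) and Scd2 by 0.59 ± 0.07 (0.000871). Erlin2 differed by 0.49 ± 0.08 (0.004), Fads2 by 0.49 ± 0.07 (0.00236), Acly by 0.45 ± 0.08 (0.00419) and Cyp7b1 by 0.34 ± 0.08 (0.0243), all more negative in cerebellum, where 2 of 2 fasted arrays lay under all fed arrays for each of these genes. Fbxw7 differed by -0.66 ± 0.07 (0.000549) and Mvk by -0.32 ± 0.08 (0.0265), each with 3 of 3 fasted arrays under the fed ones in hypothalamus and 2 of 2 over them in cerebellum. The oligodendrocyte gene Aspa differed by -0.38 ± 0.11 (0.0461), with 2 of 2 fasted cerebellum arrays over the fed ones. The astrocyte gene Aqp4 differed by -0.30 ± 0.07 (0.0174), with all fasted arrays under the fed ones in both regions. Of 14 measured astrocyte genes, 2 passed with a negative difference (9.01% of all probes), Aqp4 among them. A positive difference passed for 5 (8.66% of all probes). Other probes of some of the 13 named genes gave other changes, in hypothalamus and cerebellum. They stood at -0.12 and -0.11 for Fasn, -0.03 and 0.06 for Lbr, and -0.42 and -0.65 for Srebf1. For Fads2 they stood at 0.21 and -0.17, and for Aqp4 at -0.54 and 0.41. Ebp, with all fasted arrays under the fed ones in hypothalamus and over them in cerebellum, stood at -0.52 ± 0.09. Ebp was chosen with its changes known, so its values are a description and no test of this difference is offered.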

How the results depend on the processing

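Of 34999 probes, 4980 were called in hypothalamus (44.6% higher), 7302 in cerebellum (46.3% higher) and 6184 for the regional difference. With quantile normalization over all arrays the counts were 32 (59.4% higher), 441 (12.7% higher) and 153, and within regions 25 (40% higher), 466 (25.1% higher) and 128. Quantile normalization gives fed and fasted arrays the same spread, although the deposited ratios hold fed values near 1. These counts are therefore no separate check of the fasting change. With 75th percentile scaling, which shifts the median of all probes by -0.11 and -0.12, they were 9254 (7.72% higher) and 11088 (15.6% higher), and unscaled ratios gave 24.1% and 37.2% higher. With the hypothalamus arrays alone 2210 were called. The replicate block gave 5458, 7320 and 5934 over all arrays. In arrays of the region alone it gave 48 in hypothalamus (10789 at an unadjusted p under 0.05, limma) and 0 in cerebellum (8445). Block fits of a single region leave few residual degrees of freedom, so their low counts cannot decide whether pairing matters. Deviations of same-numbered arrays correlated at 0.07 to 0.10 in hypothalamus, each array best with its own number, and at 0.04 and -0.02 in cerebellum. The deviations of the fasted cerebellum arrays mirror each other, so the check there cannot decide. The main fit did not pair arrays by number, and whether the numbers pair them was not settled. Averaged over both regions 7956 probes were called with arrays as units and 0 with pools as units (1306 at an unadjusted p under 0.05, limma). Without 1 array the counts ran from 1940 to 5438 in hypothalamus, from 4540 to 7549 in cerebellum and from 4351 to 6307 for the difference.

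The median change of the 10 genes stayed negative under every alternative run. In hypothalamus it was -0.11 and -0.12 with the quantile settings and -0.31 with the 75th percentile, and between -0.23 and -0.17 without 1 array. In cerebellum it was -0.13 with either quantile setting, -0.33 with the 75th percentile, -0.13 over all 13 probes and -0.11 with the probes of a gene averaged, and between -0.24 and -0.18 without 1 array. Srebf2 in cerebellum, -0.50 by its chosen probe, was 0.073 as the mean of its 3 probes, an alternative chosen after seeing the data. That mean gives the probe with a residual SD of 0.86 (0.59 ± 0.70) the same weight as each of the others. Under the other alternatives run, no called probe of the 10 genes changed sign. The causes of these shifts were not tested.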
